A study of Homo sapiens with 11 samples.

Results

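The change of mRNA levels between 48 and 72 h after transduction was examined in IMR32, an established human neuroblastoma cell line that carries amplified MYCN. Of the 11 expression arrays of the study, 6 were used for it: the 2 arrays titled t=72, shMYCN#3 (A and B), the 2 titled t=48, shMYCN#3 (A and B), and 1 array of the SHC002 control virus at each of these hours. The arrays were taken by their titles, and all genes above a limit on dim signals were compared. The cells carried a pLenti virus with a short hairpin RNA against MYCN (TRCN0000020696) or with the control hairpin SHC002, both from Sigma. All were grown in DMEM with 10% fetal calf serum, and the labels name no other difference than virus and hour. The other 5 arrays, 2 of cells with no virus at 0 h, 2 of shMYCN at 24 h and 1 of SHC002 at 24 h, entered the same model and are given where they show when a level began to move. A single hairpin was used against the target, the labels name no selection of transduced cells, and they do not say whether arrays A and B came from separate cultures. The p-values therefore reflect only how far these arrays spread, and that spread may be technical. The control step rests on 1 array per hour, and its error was borrowed from the groups with 2 arrays.

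MYCN is a transcription factor of the MYC family. With its partner MAX it binds E-box sequences at many genes of ribosome production, metabolism and the cell cycle, and its amplification marks aggressive neuroblastoma. Neuroblastoma cells resemble immature sympathetic neurons: they can leave the cell cycle, extend neurites and switch on neuronal genes. Entry into S phase depends on E2F transcription factors, which turn on the genes of replication origins, DNA polymerases and nucleotide supply, while CDK inhibitors hold that step back.

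Signals were the linear intensities of the MAS5 algorithm, and their trimmed mean of about 100 on every array showed that all arrays had been scaled to one level. A change in total RNA per cell can therefore not be seen, and in these bulk samples fewer cells of a type cannot be told apart from less RNA per cell. Median signals lay between 14.9 and 16.7. The pair of 48 h arrays was the least alike (r = 0.987 across genes, with an SD of their log2 differences of 0.271, against 0.186 for the 72 h pair). Array A of that pair had a geometric mean of 141.4 on the probe sets of bacterial poly-A spikes, where the other 10 arrays had 64.1 to 85.6. Its 3' to 5' ratio for ACTB was 1.33, where the others had 1.18 to 1.3. The part of these differences in the results was not tested beyond leaving each array out. The neuroblast markers PHOX2A, HAND2, GATA3, ISL1, DBH, CHGA, TUBB3 and STMN2 were above the limit for dim genes, and the catecholamine enzyme TH was under it as a mean over the arrays. TH read 3.7 and 10.6 at 48 h and 21.6 and 25.4 at 72 h, where all other arrays had at most 6.6, so only the 72 h arrays labelled shMYCN passed the limit; it was not tested. None of 7 Schwann and glial markers measured was above that limit (S100B, SOX10, GFAP, CDH19 and FOXD3 stayed below it on every array), and their summed signal was 25.2 to 55.6 at 48 h and 35.8 to 39.1 at 72 h. Of 8 leukocyte markers 2 were above it, with PTPRC, CD3D, CD14 and LYZ below it on every array and sums of 55.4 to 70.2 and 61.1 to 61.5. Of 10 fibroblast markers 5 were above it (COL1A1, PDGFRA, PDGFRB, THY1 and ACTA2), COL1A2, COL3A1, LUM and FAP were below it on every array, and the sums were 1519.9 to 1791.6 and 1644.0 to 1898.6.

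The probe sets of MYCN, the target of the hairpin, did not read alike. Its brightest probe set read 5241.4 and 5316.9 on the 48 h arrays and 5623.7 and 4946.5 on the 72 h arrays. The control virus arrays read 5389.7 and 5055.3, and all 11 arrays lay between 4507.4 and 5623.7. Neither hour nor label separated these values, and the step was 0.00 ± 0.11 on the log2 scale (SE of the limma fit, adjusted p = 0.995). A dimmer probe set read 254.2 and 292.3 at 24 h, 319.4 and 624.2 at 48 h, and 650.7 and 795.6 at 72 h, against 406.4, 520.1 and 370.4 under control virus and 370.8 and 354.8 without virus. A further one read 130.2 and 162.4 at 24 h, 183.4 and 354.4 at 48 h, and 338.8 and 404.0 at 72 h, where the control and no-virus arrays had 216.2 to 290.2. On both dimmer probe sets the shMYCN arrays of 24 h lay below, and those of 72 h above, every control and no-virus array. For the first of them both 72 h arrays lay above both 48 h arrays, with a step of 0.67 ± 0.26 that did not pass the threshold (limma, adjusted p = 0.249). None of the 10 MYCN probe sets passed in a fit of all probe sets. At 48 and 72 h the mRNA thus does not check the labels, MYCN protein was not measured here, and every direction below rests on the label shMYCN.

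Between 48 and 72 h, many mRNAs of DNA replication fell and several of neuronal proteins rose on the arrays labelled shMYCN. Of 11865 genes tested, 583 rose (4.91%) and 773 fell (6.51%), together 1356 genes or 11.4% (limma over all arrays, Benjamini-Hochberg adjusted p under 0.05). Most changes were small: 23 genes rose and 10 fell at least 2-fold, and 200 rose and 182 fell at least 1.5-fold. The median step was 0.51 among the genes that rose and fell by 0.46 among those that fell, on the scale of log2(signal + 16), which understates the change of dim genes. Counting alone, both 72 h arrays lay above both 48 h arrays for 25.6% of all genes and below them for 25.3%. All 583 genes that rose and all 773 that fell were among these, so this separation is no further support for a call. The count of calls depended on the arrays: it was 2251 without array A of 48 h, 2200 without its array B, 362 without array A of 72 h and 296 without its array B.

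Under control virus no gene passed between 48 and 72 h in the same limma fit, and 530 genes (4.47%) had an unadjusted p under 0.05. The SD of the control step over all genes was 0.203, against 0.264 for the step under shMYCN, and Pearson's r between the steps was 0.124 across genes, which are not independent. Of the 583 genes that rose, 415 (71.2%) also had a positive control step and 120 (20.6%) had one at least 50 percent as large. Of the 773 that fell, 436 (56.4%) had a negative control step and 53 (6.86%) one at least 50 percent as large. Over all genes tested 52% of control steps were positive and 47.9% negative. The median control step was 0.10 among the rises and -0.02 among the falls, against 0.01 for all genes. Whether a step differed from that of the control virus could be tested gene by gene, and 21 genes passed (0.177%), 8 of them with a higher step under shMYCN (0.0674%) and 13 with a lower one (0.11%). At an unadjusted p under 0.05 there were 1398.

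**Figure D1:**
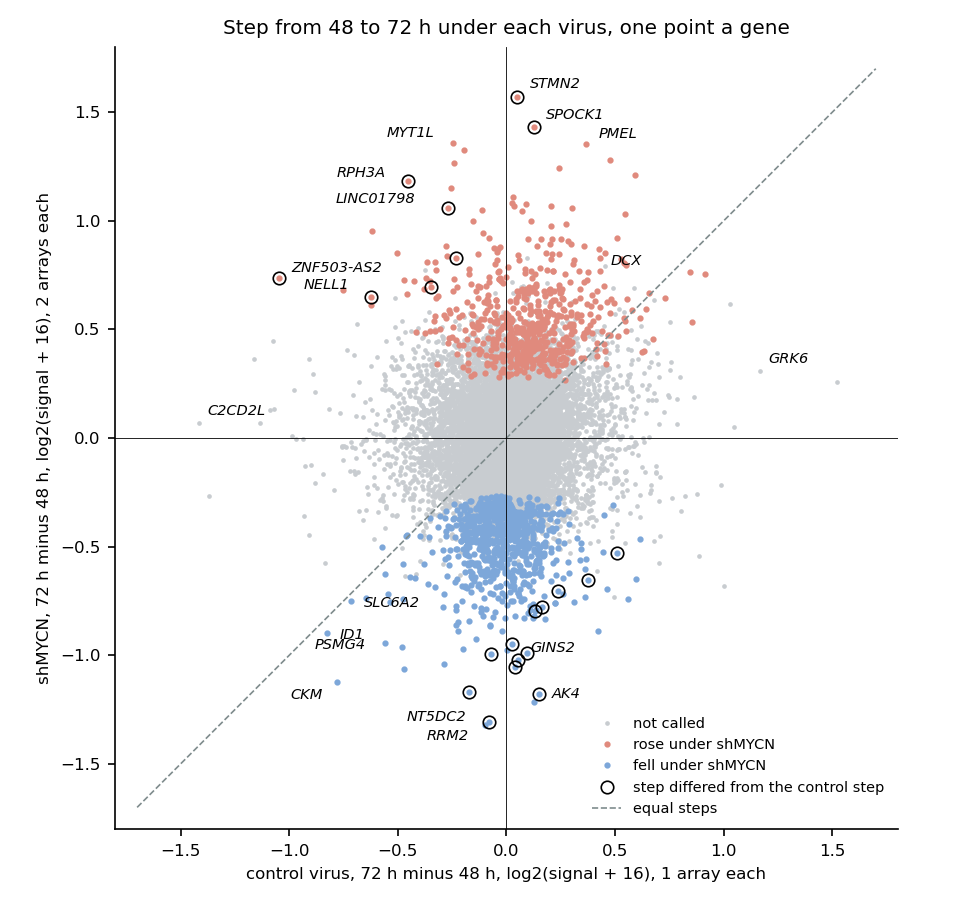
Step from 48 to 72 h of each of 11865 genes, 72 h minus 48 h on the scale of log2(signal + 16), under control virus (horizontal axis, 1 array each) and under shMYCN (vertical axis, 2 arrays each). Red points are the 583 genes that rose and blue points the 773 that fell under shMYCN, circles mark the 21 genes whose steps differed between the viruses, and the dashed line marks equal steps; STMN2 at 1.57 and RRM2 at -1.31 lie far from the line, while ID1 and SLC6A2 lie near it.

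The largest rise was that of STMN2, a stathmin that regulates microtubules in growth cones and marks neuronal differentiation. It read 319.1 and 343.7 at 48 h and 1106.4 and 931.9 at 72 h, against 67.4 and 70.3 under control virus. The 72 h arrays stood well above the 48 h arrays, and the control arrays lay somewhat below the arrays without virus (90.2 and 80.5). The step was 1.57 ± 0.11, or 2.97-fold (limma, adjusted p = 7.74e-05). A further probe set of STMN2 read 312.4 and 301.1, then 887.8 and 907.9. SPOCK1, which encodes the secreted proteoglycan testican-1, read 94.2 and 103.8, then 300.5 and 287.6, while the control arrays read 55.1 and 61.6. It rose by 1.43 ± 0.11. MYT1L, a zinc-finger factor that keeps neuronal identity, read 40.2 and 34.5, then 130.2 and 111.8, with 19.3 and 13.8 under control virus. It rose by 1.36 ± 0.17 (limma, adjusted p = 0.000969), and its control step was -0.24 ± 0.24.

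PMEL, the fibril protein of melanosomes, a product of pigment cells that like sympathetic neurons come from the neural crest, read 383.0 and 455.1, then 1054.9 and 1128.7. It rose by 1.35 ± 0.12, and its control step of 0.37 ± 0.17 had the same sign (186.9 and 245.3). CHODL, a membrane lectin of some neurons, read 71.8 and 60.2, then 208.3 and 171.3, and rose by 1.32 ± 0.15. RPH3A, the Rab3 effector rabphilin of synaptic vesicles, was near the limit for dim genes at 48 h (19.6 and 24.3) and read 66.4 and 73.6 at 72 h. Its control arrays read 19.9 and 10.2, and it rose by 1.18 ± 0.15 (limma, adjusted p = 0.000953). The long non-coding RNA MIAT read 391.0 and 493.1, then 941.2 and 933.1, and rose by 1.07 ± 0.11. For MIAT as for the others named so far, both 72 h arrays lay above the control array of 72 h. That they lay above both 48 h arrays was a condition of naming these genes.

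The other 8 of the 15 largest rises were NWD2, CT75, LINC01234, KRT10, JAKMIP3, MBD5, B3GALT2 and MGARP, with steps of 1.08 to 1.28. Of these, NWD2, LINC01234 and KRT10 were dim at 48 h (at most 23.2) and read 62.9 to 78.5 at 72 h. Outside the 72 h shMYCN arrays LINC01234 read 2.8 to 22.1, KRT10 1.8 to 21.4 and JAKMIP3 3.1 to 32.8. The limit for dim genes is a mean over all 11 arrays. LINC01234, KRT10 and JAKMIP3 passed it only through the 72 h shMYCN arrays, where they were high, so their place here leans on that filter. The control steps of KRT10 (0.59 ± 0.22) and NWD2 (0.48 ± 0.23) had the same sign and were the largest positive ones among the 15 genes, though neither passed. CT75 differed most between its 48 h arrays (352.3 and 187.0), and it no longer passed without array A of 72 h. MBD5, a member of the methyl-CpG-binding family, rose by 1.11 ± 0.12 on its brightest probe set (150.7 and 132.4, then 342.4 and 305.5), but another probe set of it gave -0.07 ± 0.26. Besides MBD5, 5 of the 15 genes had other probe sets above the dim limit, and all of those had the same sign. Only 3 of these 7 probe sets passed in a fit of all probe sets. That of MYT1L gave 0.38 ± 0.17 and that of CT75 0.40 ± 0.15, well under the steps of their brightest probe sets, and neither passed.

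**Figure D2:**
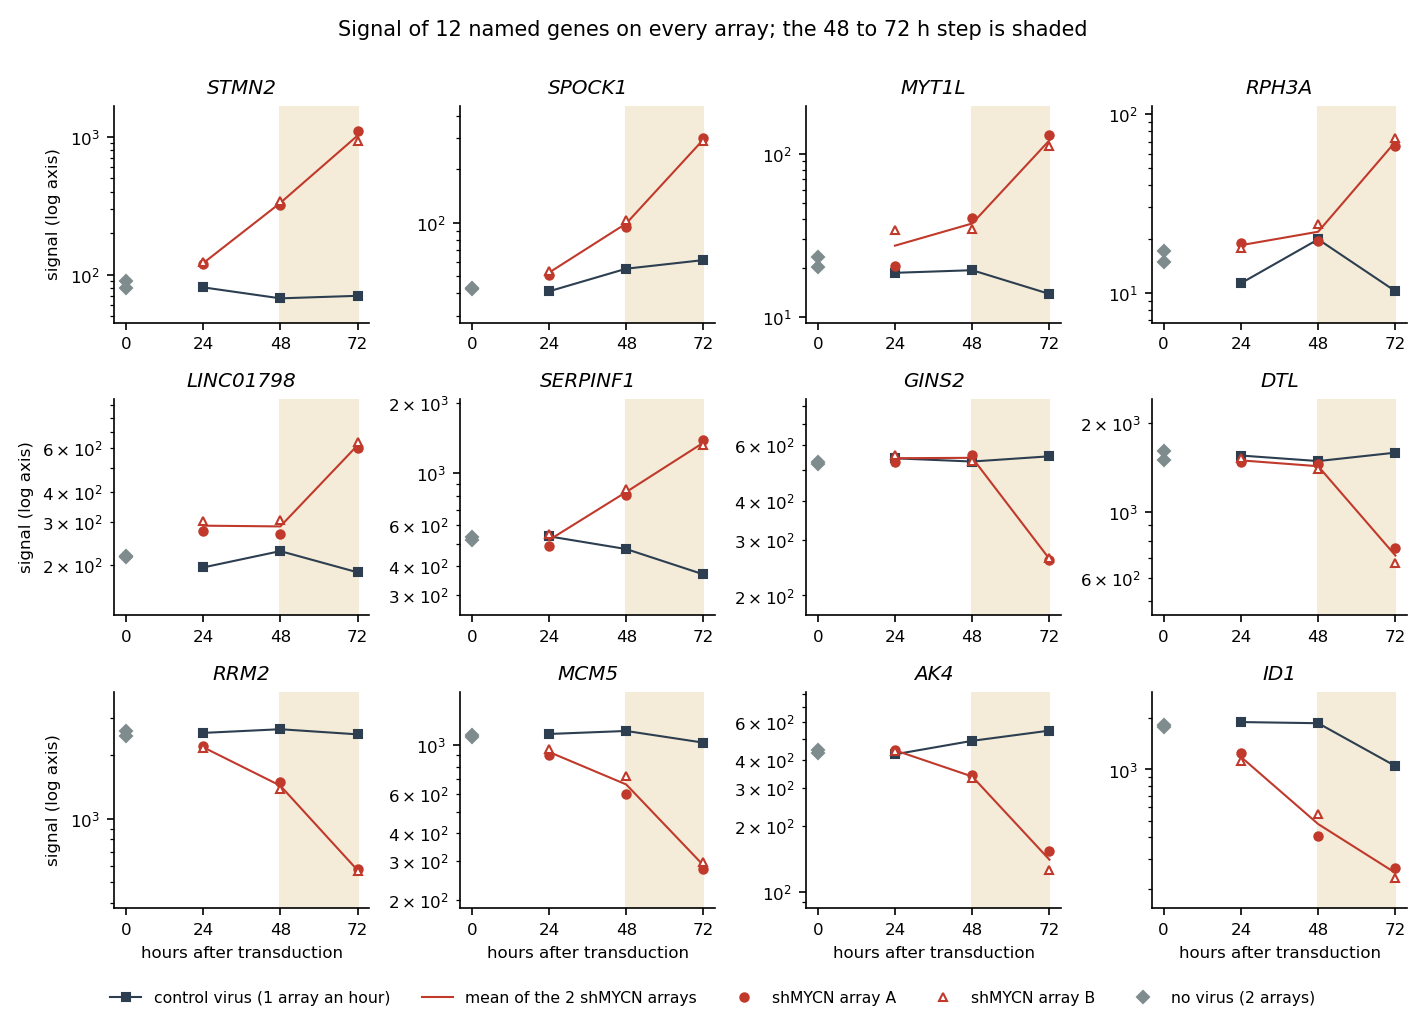
Signal of 12 named genes on every array (logarithmic vertical axis) against hours after transduction; red points and triangles are the arrays A and B labelled shMYCN with a line through their mean, blue squares control virus, grey diamonds cells with no virus, and the 48 to 72 h step is shaded. STMN2 climbs from 119.4 and 122.7 at 24 h to 1106.4 and 931.9 at 72 h, GINS2 and DTL leave the control level only in the shaded step, and ID1 declines under both viruses.

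Neuronal genes were then taken as groups, and these and all other lists were chosen with earlier results of these data known. Of 23 tested genes of the neuronal cytoskeleton and growth cone, 6 rose and none fell, with a median step of 0.16 against 0.00 for all genes (0.06 under control virus), beside 4.91% of all genes that rose. The median was 0.26 within arrays A but 0.06 within arrays B, and without 1 array 4 to 8 genes rose. After STMN2, in order of p-value, came MAP6, which stabilises microtubules. It read 261.1 and 276.8, then 498.7 and 519.3 (0.88 ± 0.11), with 88.7 and 118.0 under control virus. DCX, the doublecortin of migrating neurons, read 1420.0 and 1205.4, then 2266.7 and 2209.5 (0.77 ± 0.10). Its control arrays read 452.4 and 615.1, a step of 0.43 ± 0.13 that did not pass. MAP2, the microtubule protein of dendrites, rose by 0.48 ± 0.09, STMN4 by 1.00 ± 0.20 and DPYSL3 by 0.34. The tubulin TUBB3 (0.11), GAP43 (0.20) and the neurofilament gene NEFL (0.15) did not pass.

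Of 28 genes of synaptic and dense-core vesicles, 5 rose and 1 fell, beside 4.91% and 6.51% of all genes. Their median step was 0.17 (-0.03 under control virus), 0.22 within arrays A and 0.09 within arrays B, and without 1 array 2 to 7 rose. SCG2, the secretogranin II of dense-core granules, read 222.9 and 218.7, then 399.6 and 360.8, and 177.3 and 167.0 under control virus. It rose by 0.74 ± 0.09 (limma, adjusted p = 0.000888). SYT4, a synaptotagmin, rose by 0.77 ± 0.11, CADPS, which primes dense-core vesicles, by 0.64 ± 0.14, the glutamate receptor gene GRIA2 by 0.57 ± 0.16 and the neuropeptide precursor VGF by 0.64. SV2A, a vesicle glycoprotein, fell by 0.35.

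Among 30 genes of axon guidance and neural adhesion 5 rose and none fell, with a median of 0.17 (0.07 under control virus; 0.12 within arrays A and 0.22 within arrays B), beside 4.91% of all genes that rose. Both 72 h arrays were above both 48 h arrays for 16 of them, against 25.6% of all genes. The adhesion molecule CNTN1 read 355.7 and 380.8, then 565.5 and 528.2, while control virus left it at 152.1 and 154.4. It rose by 0.55 ± 0.09. The semaphorin SEMA6A rose by 0.68 ± 0.13, the guidance ligand SLIT1 by 0.85 ± 0.16, the netrin receptor UNC5C by 0.63 ± 0.14 and L1CAM by 0.36. None of the 30 passed without array A of 72 h.

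The adrenergic genes, which set the sympathetic identity of neuroblastoma, did not move one way: of 24 tested, 3 rose and 5 fell, beside 4.91% and 6.51% of all genes, with a median of 0.03. DBH, which makes noradrenaline, read 139.8 and 154.3, then 88.5 and 85.9, against 216.8 and 205.0 under control virus. It fell by 0.66 ± 0.12. SLC6A2, the noradrenaline transporter, read 137.3 and 183.7, then 86.9 and 89.0, a step of -0.75 ± 0.13, but its control step was as large (367.4 and 217.5, -0.72 ± 0.18). HAND1, ISL1 and EYA1 fell by 0.29 to 0.44. LIN28B, which blocks maturation of let-7 microRNAs, rose by 0.42 ± 0.08, LMO3, a LIM-only cofactor, by 0.62 ± 0.12 and the decarboxylase gene DDC by 0.34. PHOX2A (0.06), GATA3 (-0.12) and HAND2 (0.29) did not pass.

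Of the 24 lists, which were chosen with earlier results of these data known, replication genes had the median step farthest from 0. Of 49 tested genes of DNA replication and the G1/S transition, 36 fell and none rose, beside 6.51% of all genes that fell. A negative step was found for 48 of the 49, against 5868 of all 11865 genes. Their median step was -0.50, against 0.00 for all genes and -0.04 for the same 49 genes under control virus. Measured within each letter the median was -0.48 for arrays A and -0.51 for arrays B. Both 72 h arrays lay below both 48 h arrays for 45 of the 49, against 25.3% of all genes. Without 1 array the number that fell was 41 (array A of 48 h), 33 (array B of 48 h), 27 (array A of 72 h) or 18 (array B of 72 h), and the median stayed between -0.55 and -0.46.

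Against cells with no virus, the list's median was -0.03 at 24 h, -0.16 at 48 h and -0.66 at 72 h on arrays labelled shMYCN. Under control virus it was 0.02, 0.04 and -0.01. Several members kept the control level for 48 h. GINS2, a subunit of the GINS complex of the replicative helicase, read 558.5 and 534.7 at 48 h and 259.2 and 262.9 at 72 h, while control virus gave 532.0 and 552.7. At 24 h it read 530.9 and 559.1, so all shMYCN arrays up to 48 h lay within the range of the untreated and control arrays or just outside it. It fell by 1.02 ± 0.08, 2.03-fold (limma, adjusted p = 0.000129), after a step of 0.00 from 24 to 48 h. MCM10, chosen after its values were seen, had the same shape, with 590.0 and 575.5 at 48 h, 377.3 and 364.2 at 72 h, and 621.1 and 589.9 under control virus.

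**Figure D3:**
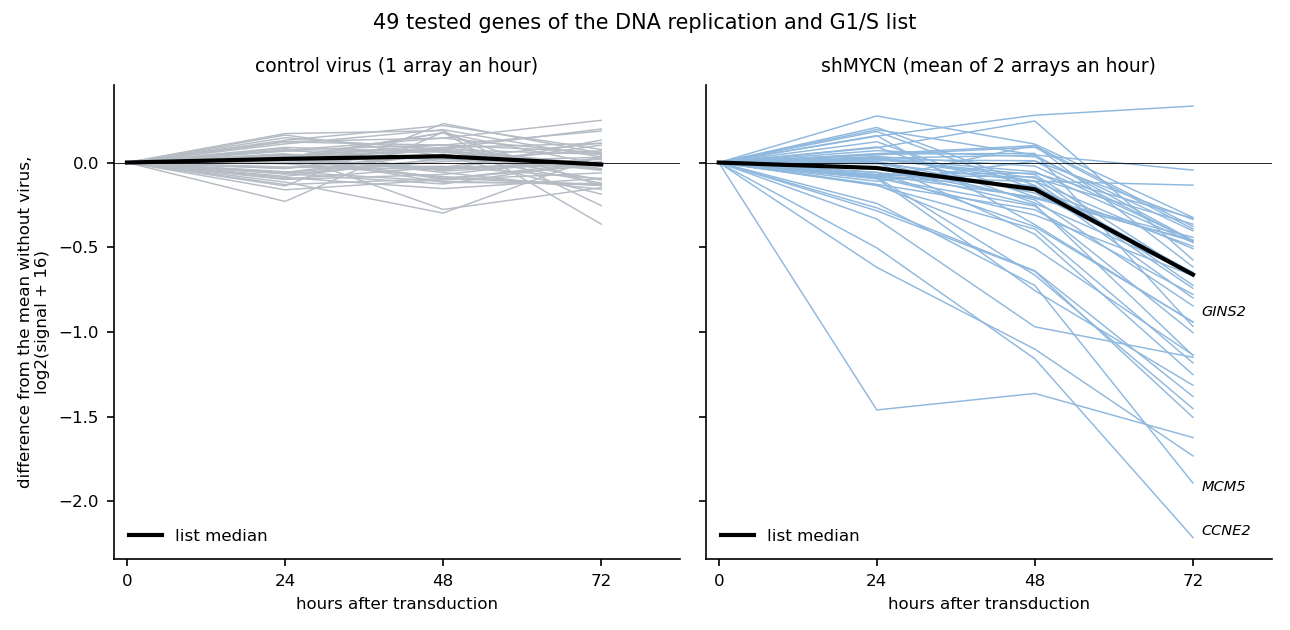
Difference from the mean of the arrays with no virus on the scale of log2(signal + 16) for each of the 49 tested genes of DNA replication and G1/S (thin lines) and their median (black line), against hours after transduction, for control virus (left, 1 array an hour) and shMYCN (right, mean of 2 arrays an hour). Under shMYCN the median goes from -0.16 at 48 h to -0.66 at 72 h, and under control virus it stays between -0.01 and 0.04.

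Every subunit of the MCM2 to MCM7 helicase, which unwinds DNA at the fork, fell. MCM5 read 601.6 and 726.1, then 274.2 and 297.4, and 1159.4 and 1026.3 under control virus. It fell by 1.17 ± 0.10, 2.24-fold (limma, adjusted p = 0.00013). MCM4 fell by 0.75, MCM3 by 0.63, MCM6 by 0.50, MCM2 by 0.42 and MCM7 by 0.40. Of the factors that load the helicase onto origins, ORC1 fell by 0.86 and CDC6 by 0.83. CDT1 fell by 0.72 ± 0.20, but its control step was -0.54 ± 0.28. CCNE2, the cyclin E2 that drives S-phase entry with CDK2, read 179.7 and 151.9, then 72.5 and 70.0, and stayed at 361.3 and 371.9 under control virus. It had started to decline earlier, at 258.6 and 280.8 at 24 h, and fell by a further 1.06 ± 0.10. CHAF1B, a subunit of the chromatin assembly factor that places histones behind the fork, read 183.6 and 187.3, then 96.9 and 88.7, and fell by 0.89 ± 0.10. The sliding clamp PCNA fell by 0.44, thymidylate synthase TYMS by 0.60 and the activator E2F1 by 0.58. CDK4 (-0.27), POLA1 (-0.27), CDK2 (-0.34) and CCND1 (-0.09) did not pass. E2F3 was the member with a positive value (0.05). E2F5, also chosen after its values were seen, was already low at 24 h (83.3 and 96.7, against 275.6 under control virus) and read 99.1 and 95.3 at 48 h and 75.2 and 81.9 at 72 h.

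Other regulators of S phase were among the 15 largest falls. DTL, the receptor that directs CDT1 and other proteins to the CUL4 ubiquitin ligase, read 1454.6 and 1397.1, then 753.9 and 670.3. Control virus gave 1484.0 and 1584.5, so at 48 h DTL was still near the control level, and it fell by 0.99 ± 0.09 (limma, adjusted p = 0.000172). E2F8, an atypical E2F that represses S-phase genes, read 161.1 and 121.3, then 47.2 and 55.4, against 140.3 and 154.6 under control virus. It fell by 1.22 ± 0.14, and up to 48 h its arrays had lain near the control arrays. CDC25A, the phosphatase that activates cyclin-dependent kinases, read 416.3 and 575.4, then 231.7 and 250.9, and 694.7 and 696.4 under control virus. It fell by 0.98 ± 0.13.

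The promoters of the genes that moved were searched for letters that E2F and MYC factors bind. Windows from 250 bases before to 50 after the start were taken from RefSeq (GRCh38.p14) and searched on both strands for TTTCGCGC and TTTGGCGC, letters bound by E2F factors. Either was present in 38 of 649 promoters matched among the 773 genes that fell (5.86%), in 4 of 448 among the 583 that rose (0.893%) and in 202 of 9698 of all genes tested (2.08%). Of 39 promoters matched in the replication list 12 held it (30.8%), as did 322 of all 27305 RefSeq promoters (1.18%). The palindrome CACGTG, an E-box bound by MYC proteins, was present in 11.9% of genes that fell, 11.4% that rose, 10.7% tested and 7.43% of all promoters. TTTGAA, the core of the element that represses cell cycle genes in resting cells, was found in 10.6%, 11.6% and 9.48%, and in 15.4% of all promoters. The motifs overlap in places, a match is a description of letters, and no test was made. The 100 bases before the start of 6 genes that fell are shown because the E2F-type letters lie in them; the 6 were chosen for that, and capitals mark the letters on either strand. The windows are chr1:212035648-212035747 (plus strand) for DTL, chr3:48188418-48188517 (minus) for CDC25A, chr2:135876444-135876543 (minus) for MCM6, chr7:100101398-100101497 (minus) for MCM7, chr11:65261862-65261961 (plus) for POLA2 and chr20:33686386-33686485 (minus) for E2F1.
DTL: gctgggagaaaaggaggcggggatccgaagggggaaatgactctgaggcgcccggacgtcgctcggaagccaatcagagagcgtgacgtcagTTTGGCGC
CDC25A: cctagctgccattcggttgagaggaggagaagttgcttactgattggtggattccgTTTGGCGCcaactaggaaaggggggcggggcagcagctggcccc
MCM6: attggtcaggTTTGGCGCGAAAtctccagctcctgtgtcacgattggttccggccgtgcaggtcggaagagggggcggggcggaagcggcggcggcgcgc
MCM7: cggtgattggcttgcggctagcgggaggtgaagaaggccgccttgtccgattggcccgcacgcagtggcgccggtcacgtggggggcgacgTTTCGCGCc
POLA2: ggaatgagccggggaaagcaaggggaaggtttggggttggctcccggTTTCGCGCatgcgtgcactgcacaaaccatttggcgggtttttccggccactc
E2F1: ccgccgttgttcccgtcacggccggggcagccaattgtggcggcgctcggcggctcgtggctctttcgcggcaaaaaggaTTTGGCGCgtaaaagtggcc
The first capital lies 8 bases before the start in DTL, 44 in CDC25A, 9 in MCM7, 53 in POLA2 and 20 in E2F1. In MCM6 a match on each strand overlaps, at 90 and 86 bases before the start.

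Many genes of nucleotide supply fell as well: of 31 tested for nucleotide and polyamine synthesis, 16 fell and none rose, beside 6.51% of all genes that fell, with a median of -0.36 (-0.03 under control virus). RRM2, the regulated subunit of ribonucleotide reductase, read 1489.2 and 1384.6, then 577.1 and 566.0, and 2658.5 and 2514.3 under control virus. It fell by 1.31 ± 0.08, 2.47-fold (limma, adjusted p = 3.78e-05), and a further probe set gave -1.35 ± 0.07. TK1, the thymidine kinase of S phase, read 905.8 and 934.2, then 525.1 and 531.2, and fell by 0.78 ± 0.07. IMPDH2, rate-limiting for guanine nucleotides, fell by 0.82 ± 0.09, from 1229.2 and 1423.8 to 750.6 and 734.0. The purine enzyme gene ADSL fell by 0.75 ± 0.08, PPAT by 0.66 and PAICS by 0.53. ODC1, which makes polyamines and is a classic MYC target, stayed at 0.00, and CAD (-0.22) did not pass. Without 1 array 8 to 20 of the list fell, the 8 without array B of 72 h and 9 without its array A.

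Mitotic genes were the next cell cycle group. Of 50 tested genes of G2/M and mitosis 12 fell and none rose, beside 6.51% of all genes that fell. The median was -0.23 (-0.04 under control virus), and 47 had a negative step, against 5868 of all 11865 genes. The depolymerising kinesin gene KIF2C read 802.6 and 833.2, then 583.9 and 562.5, and 932.7 and 948.4 under control virus. It fell by 0.50 ± 0.10. CDCA8 fell by 0.43 ± 0.09, RACGAP1 by 0.43 ± 0.09, AURKB by 0.37 ± 0.08 and CDK1 by 0.61 ± 0.15. MKI67 (-0.07), AURKA (0.00), PLK1 (-0.20) and CCNB1 (-0.14) did not pass. The 12 became 21 without array A of 48 h, 20 without its array B, 2 without array A of 72 h and 0 without its array B, while the median stayed between -0.25 and -0.20.

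Genes of cell growth had smaller median steps than the replication and nucleotide lists. Of 43 tested genes of ribosome biogenesis, a group MYC proteins are known to drive, 10 fell and none rose, beside 6.51% of all genes that fell. The median was -0.22 (-0.02 under control virus), -0.19 within arrays A and -0.32 within arrays B. Of the 43 steps 40 were negative, against 5868 of all 11865 genes. UTP4, of the small-subunit processome, read 1016.0 and 1056.7, then 813.3 and 783.9, and fell by 0.37 ± 0.08. PNO1 fell by 0.40 ± 0.08 and NOC4L by 0.51 ± 0.11. NOP58, a core protein of box C/D particles, fell by 0.44 ± 0.08, but moved as far under control virus (-0.46 ± 0.11, 1934.3 and 1404.9). Without array A of 72 h 1 gene of the list fell, without its array B none, without array A of 48 h 19 and without its array B 10.

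Among 30 translation factors and tRNA synthetases 6 fell, beside 6.51% of all genes. The median was -0.15 (-0.04 under control virus), but -0.04 within arrays A and -0.20 within arrays B. EIF2S2, a subunit of the initiation factor that brings the first tRNA, read 953.9 and 928.1, then 674.6 and 609.6, against 2414.9 and 2231.1 under control virus. It fell by 0.54 ± 0.08, and IARS1 fell by 0.47 ± 0.09, YARS1 by 0.47 ± 0.10 and EIF6 by 0.38 ± 0.08. Of 22 glycolytic genes 6 fell and 2 rose, beside 6.51% and 4.91% of all genes. Their median was -0.25, with -0.09 within arrays A, -0.35 within arrays B and -0.12 under control virus. ENO1 read 2428.0 and 2541.2, then 1556.7 and 1510.8, and fell by 0.69 ± 0.09, while ENO2, the neuronal enolase, rose by 0.47 ± 0.12 beside a control step of 0.47 ± 0.16. ALDOA, PFKM and LDHA fell by 0.39 to 0.51, and ALDOC, the aldolase of brain, rose by 0.52. In the respiratory chain 5 of 38 genes fell, beside 6.51% of all genes, with a median of -0.13 (-0.06 within arrays A, -0.21 within arrays B and -0.09 under control virus). They were led by NDUFB2 at -0.71 ± 0.09 (570.4 and 688.6, then 371.2 and 383.8). Of 22 chaperone genes, with medians of -0.04 within arrays A, -0.20 within arrays B and -0.09 under control virus, 3 fell, beside the same 6.51%: HSPB1 by 0.52 ± 0.10, CCT7 by 0.48 ± 0.09 and CCT2 by 0.38 ± 0.10. Without array B of 72 h the falls were 1 among the translation genes, 2 in glycolysis, 2 in the respiratory chain and 0 among the chaperones.

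Some inhibitors of the cell cycle rose in the same step. Of 28 tested CDK inhibitors and p53 targets 7 rose and none fell, beside 4.91% of all genes that rose, with a median of 0.19 (0.10 under control virus). CDKN1C, the inhibitor p57, read 461.9 and 445.8, then 746.3 and 755.7, against 139.9 and 155.4 under control virus. It rose by 0.71 ± 0.09 (limma, adjusted p = 0.000882). CDKN1A, the inhibitor p21, read 69.7 and 74.8, then 106.5 and 124.0, and rose by 0.57 ± 0.12. Its control arrays read more, 112.9 and 152.3, a step of 0.38 ± 0.17. TP53INP1 rose by 0.76 ± 0.13 and the atypical cyclin gene CCNG2 by 0.56 ± 0.09. Control arrays went from 239.6 to 292.1 for TP53INP1 and from 443.3 to 559.8 for CCNG2. CDKN1B stayed at 0.00, and MDM2 (0.24) did not pass. Without array A of 72 h 3 of the list rose, and without its array B 2.

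Some feedback genes of the MAPK pathway also rose. Of 27 tested immediate early and MAPK feedback genes 7 rose and none fell, beside 4.91% of all genes that rose, with a median of 0.27 (0.09 under control virus). DUSP4, a phosphatase that inactivates ERK, read 124.6 and 142.9, then 240.0 and 237.0, and 86.6 and 113.5 under control virus. It rose by 0.77 ± 0.11. DUSP6, also an ERK phosphatase, rose by 0.64 ± 0.12, and the inhibitors SPRY2 and SPRED2 by 0.74 ± 0.15 and 0.43 ± 0.09. The control arrays also went up, from 67.0 to 81.0 for DUSP6, 48.1 to 53.5 for SPRY2 and 310.3 to 383.4 for SPRED2. For EGR1 (0.73), ETV5 (0.38) and ARC (0.53), the control steps were 0.37, 0.42 and 0.85. Without array A of 72 h 2 of the list rose, and likewise without its array B.

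Developmental signals were mixed. Of 28 effectors of BMP, Notch and Wnt signalling 2 rose and 4 fell, beside 4.91% and 6.51% of all genes. ID1, a target of BMP signalling that restrains differentiation factors, read 408.2 and 548.9, then 264.7 and 230.0. It fell by 0.90 ± 0.13, but its control arrays went from 1868.4 to 1047.4, a step of -0.83 ± 0.18. ID3 fell by 0.62 ± 0.13 beside a control step of -0.56 ± 0.19. The homeobox gene MSX1 fell by 0.53 ± 0.10 with a control step of -0.04, and the Notch ligand JAG1 rose by 0.72 ± 0.15. JAG1 read 28.2 and 38.1 on the control arrays. Of 26 genes of the extracellular matrix and mesenchymal state 6 fell and 1 rose, beside 6.51% and 4.91% of all genes. SNAI2, a repressor of epithelial genes, read 277.1 and 238.1, then 175.2 and 180.7, against 621.7 and 669.2 under control virus, and fell by 0.49 ± 0.09. YAP1, the effector of the Hippo pathway, fell by 0.66 ± 0.13 and COL5A1 by 0.61 ± 0.11, while COL5A2 rose by 0.71 ± 0.14 from a dim level. None of these 26 passed without array A of 72 h.

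Of 14 tested histone and histone-related genes 3 rose and 3 fell, beside 4.91% and 6.51% of all genes. SLBP, which binds replication-dependent histone mRNAs in S phase, read 1210.7 and 983.2, then 697.0 and 617.8, and fell by 0.72 ± 0.10. H2AZ2 fell by 0.47 ± 0.08 and H2AX by 0.53. H2AC6 read 71.6 and 73.4, then 165.8 and 137.5, and rose by 0.92 ± 0.15, H2BC12 rose by 0.65 ± 0.11 and H2BC5 by 0.58. Probe sets of these clustered histone genes may share sequence, so the member that moved is uncertain.

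The remaining lists had medians of -0.07 to 0.11, against 0.00 for all genes. Their counts stand beside 4.91% of all genes that rose and 6.51% that fell. With so few members called, the counts are not read as results about the lists. In the hypoxia response 2 of 19 rose and 2 fell. DDIT4, an inhibitor of mTORC1, rose by 0.69 ± 0.11 and CITED2 by 0.50 ± 0.09. Of 22 genes of cholesterol synthesis DHCR7 and LSS fell, and of 33 stress-response genes (integrated stress, unfolded protein) MANF, PHGDH and CEBPB fell (by 0.39 to 0.61). In the lysosome and autophagy list 1 of 30 rose and 2 fell. Among 22 BCL2 family and caspase genes the survival factor BCL2 rose by 0.49 ± 0.11, while DIABLO and CYCS fell by 0.41 and 0.35. None of 14 interferon response genes passed, and their median was 0.11, with 0.14 under control virus. None of the 10 tested genes of the MYC network passed; MXI1 (0.30) and MXD3 (-0.35) had control steps of 0.28 and -0.50, and MAX (-0.05), MNT (-0.14), MLX (-0.14), MXD1 (0.15), MYCL (-0.11), MLXIP (0.09) and MYCNOS (0.10) lay nearer to 0.

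**Figure D4:**
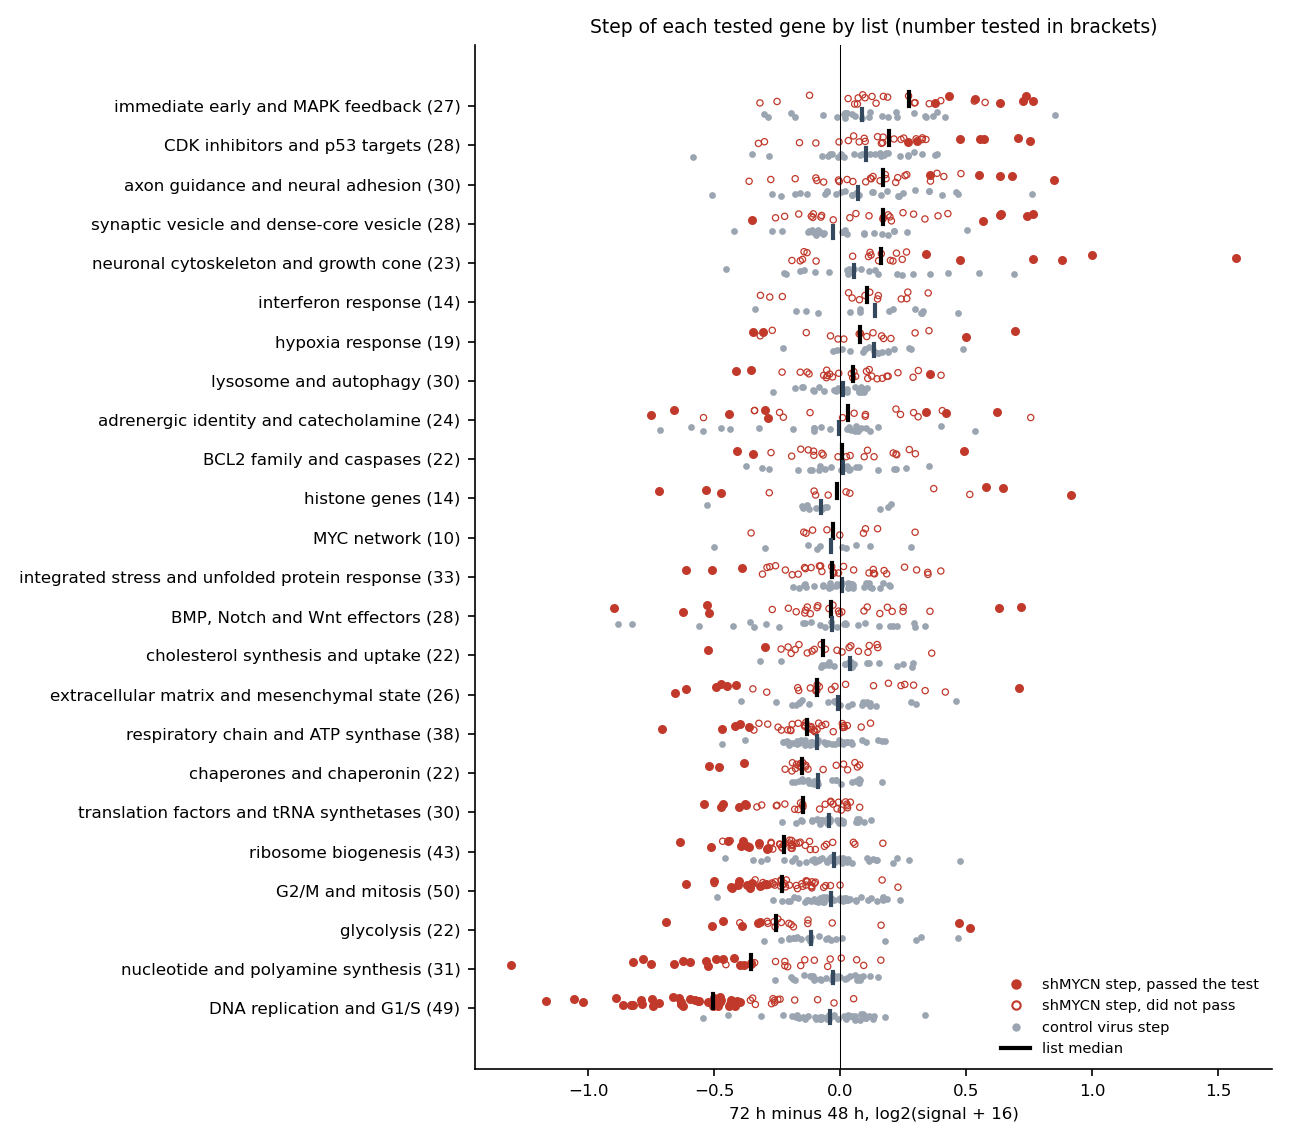
Step from 48 to 72 h (72 h minus 48 h, log2(signal + 16)) of every tested gene in 24 lists, ordered by list median. Red points are steps under shMYCN, filled where the gene passed at an adjusted p of 0.05, grey points the steps of the same genes under control virus, and bars the medians; the replication list at -0.50 lies farthest from 0, and the control medians of all lists lie between -0.12 and 0.14.

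The 15 largest falls held genes of other roles as well. NT5DC2, of the nucleotidase family, read 498.7 and 741.8, then 220.8 and 248.3, against 1343.7 and 1255.3 under control virus. It fell by 1.32 ± 0.14, 2.5-fold (limma, adjusted p = 0.000585). PLSCR1, a phospholipid scramblase, read 511.4 and 540.1, then 255.3 and 265.0, with 1094.7 and 950.1 under control virus, and fell by 0.97 ± 0.08. TESC, a calcium-binding protein, fell by 1.04 ± 0.11, and SAMD11 by 1.06 ± 0.14. PPP4C, the catalytic subunit of protein phosphatase 4, fell by 0.96 ± 0.14, with a control step of -0.48 ± 0.20. CKM, the creatine kinase of muscle, was dim (29.0 and 58.7, then 6.4 and 15.6), and its control arrays read 55.2 and 25.4. Its fall of 1.12 ± 0.23 no longer passed without array A of 72 h or with dim genes kept in the fit. Of the 15 genes, 9 had other probe sets above the dim limit, and 15 of those 16 probe sets had the same sign, the exception being 1 of CRTAP. Of the 15 with the same sign 10 passed in a fit of all probe sets. Among those that did not, 1 of CDC25A gave -0.06 ± 0.13.

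For 13 genes the step under shMYCN was lower than that under control virus. RRM2 differed by -1.23 ± 0.14 (limma, adjusted p = 0.0132), GINS2 by -1.08 ± 0.14, DTL by -1.08 ± 0.15, CCNE2 by -1.10 ± 0.17 and MCM5 by -0.99 ± 0.17. AK4, a mitochondrial adenylate kinase, read 342.6 and 332.7, then 154.9 and 126.7, while control virus gave 491.4 and 547.2. Its groups moved apart, and the steps differed by -1.33 ± 0.17 (limma, adjusted p = 0.0132). SPC24, a kinetochore subunit, was at the control level at 48 h (217.2 and 218.3, control 200.5) and read 109.7 and 100.8 at 72 h (control 204.4). The mismatch repair gene MSH6 read 966.0 and 947.6, then 535.5 and 554.0, beside 1378.8 and 1509.8 under control virus. The import receptor gene IPO8 (-0.94 ± 0.14), BRI3BP (-0.94 ± 0.14) and CRTAP (-0.92 ± 0.15), which takes part in collagen hydroxylation, also passed. For DDX27, a helicase of ribosome production, and PANK1, which starts coenzyme A synthesis, the control array of 48 h stood apart. It read 356.5 for DDX27, where the other 4 control and untreated arrays had 478.9 to 516.5, and 249.2 for PANK1, where they had 302.2 to 333.0.

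For 8 genes the step under shMYCN was higher. STMN2 differed by 1.52 ± 0.19, SPOCK1 by 1.31 ± 0.20 and RPH3A by 1.64 ± 0.25. LINC01798, a long non-coding RNA, read 276.1 and 304.3 at 24 h, 269.5 and 306.8 at 48 h, and 600.2 and 634.8 at 72 h. Control virus gave 195.9, 228.5 and 187.2 and no virus 217.4 and 215.8. LINC01798 was thus already above these arrays at 24 h, kept that level to 48 h and rose in the last step, and the steps differed by 1.33 ± 0.16 (limma, adjusted p = 0.0132). SERPINF1, the secreted neurotrophic factor PEDF, read 807.9 and 856.6, then 1386.3 and 1323.8, while control virus went from 473.7 to 368.9. That control array of 72 h stood below the other 4 control and untreated arrays (473.7 to 537.1). GDAP1L1 differed by 1.06 ± 0.18. NELL1, a secreted protein, read 85.5 and 92.7, then 146.2 and 150.7, and 114.5 and 68.6 under control virus. Here too the control array of 72 h stood below the other 4 control and untreated arrays (82.9 to 121.0). ZNF503-AS2, an antisense RNA, was dim at 48 h (14.5 and 12.8) and read 30.5 and 36.5 at 72 h. It passed the limit for dim genes only through the 72 h shMYCN arrays. Its control array of 48 h (28.7) stood above the other 4 control and untreated arrays (5.6 to 14.7). The 21 calls were sensitive to single arrays: there were 211 without array A of 48 h, 624 without its array B and 0 without either 72 h array.

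**Figure D5:**
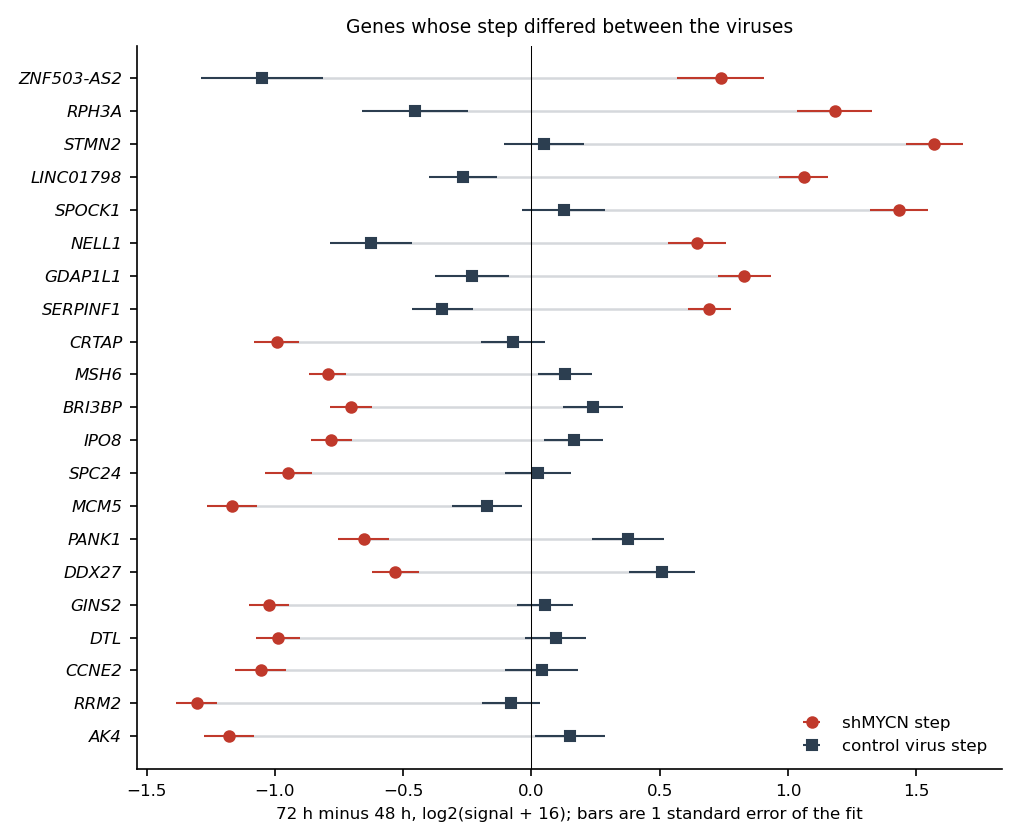
Steps from 48 to 72 h (72 h minus 48 h, log2(signal + 16)) of the 21 genes whose step differed between the viruses, under shMYCN (red points, 2 arrays an hour) and control virus (blue squares, 1 array an hour); bars are 1 standard error of the fit. Control steps away from 0 belong to ZNF503-AS2 (-1.05), NELL1 (-0.62), DDX27 (0.51), RPH3A (-0.45), PANK1 (0.38) and SERPINF1 (-0.35).

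The largest control steps belonged to other genes. HLA-F-AS1 had the largest positive one (17.8 and 81.1, 1.52 ± 0.43) and C2CD2L the largest negative one (48.1 and 8.0, -1.42 ± 0.43). GRK6, ST3GAL2, BEST1 and DAPP1 followed with 1.00 to 1.17, and ZNF414, RSPH3, MAPK11 and BTG1-DT with -1.37 to -1.09. None passed, and each is the reading of 1 probe set. The other probe sets of GRK6 above the dim limit went from 131.1 to 124.9, 112.5 to 109.7 and 107.0 to 69.4 under control virus. Those of ST3GAL2 went from 62.3 to 57.3, 66.2 to 66.4 and 33.8 to 30.8. Under shMYCN the steps of these 10 genes lay between -0.68 and 0.62, and none passed there either.

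Set beside the step from 24 to 48 h, with which it shares the 48 h arrays, the later step differed in timing from gene to gene. In the earlier step 1160 genes were called (9.78%), 551 of them higher (4.64%) and 609 lower (5.13%). STMN2 gained 1.34 then and 1.57 later, CHODL 1.34 and 1.32, and NT5DC2 had -0.95 and -1.32. LINC01798 (-0.01 and 1.06), RPH3A (0.14 and 1.18), NWD2 (0.01 and 1.28), GINS2 (0.00 and -1.02), DTL (-0.06 and -0.99) and E2F8 (-0.21 and -1.22) had most of their change in the later step. DCX had more in the earlier step (1.28 and 0.77), as did PANK1 (-0.75 and -0.65). The difference between the steps was not tested.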

How the data were processed

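RNA of IMR32 cells was measured on 11 Affymetrix arrays. Values deposited by the authors are linear signal intensities of 54675 probe sets; MAS5 and GCOS stand in the submitters' processing notes, and their versions are not given in the sources used here. Probe sets with 1 gene symbol (41097) gave 19775 genes, each read from its brightest probe set by mean log2 signal; 1801 probe sets with several symbols, 11777 unnamed ones and 62 control probe sets were not tested. The dimmest 40 percent of genes (mean signal under 14.8) were left out, which left 11865. One mean for each of 7 groups was fitted to log2(signal + 16) over all 11 arrays (limma 3.58.1, R 4.3.3, eBayes with trend, 4 residual and 7.35 prior degrees of freedom), two-sided, with Benjamini-Hochberg adjustment and a threshold of 0.05. Errors are standard errors of that fit, and folds are powers of 2 of its steps. Steps of the dimmer MYCN probe sets and of further probe sets of other genes came from a fit of all probe sets without the filter. The number of arrays limits the precision.

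The text names MYCN, the 15 largest rises and falls that passed with no overlap of arrays, the 8 largest differences of steps each way, the 5 largest control steps each way, at most 4 genes a list, those of smallest p, and the MYC network; other genes, the 5 further differences among them, were named after their values were seen. The members and lists were chosen with earlier results of these data known. On simulated data with 50 changed genes for each fold among 11865, the step recovered 48 percent at 1.5-fold and 88 percent at 2-fold, with 7 false calls, and the difference of steps 8 and 50 percent, with 3. The letters A and B did not pair the arrays (correlations of deviations -0.05, 0.04 and 0.10). Promoter letters came from RefSeq for 9698 of the genes tested.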

Additional observations from a re-analysis of the deposited data

Results flagged for a closer look

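The step from 48 to 72 h differed between the viruses for 21 genes by the limma test of the difference (adjusted p under 0.05). It was lower under shMYCN for AK4 (-1.33), RRM2 (-1.23), CCNE2 (-1.10), DTL (-1.08), GINS2 (-1.08), DDX27 (-1.04), PANK1 (-1.03), MCM5 (-0.99), SPC24 (-0.97), IPO8 (-0.94), BRI3BP (-0.94), MSH6 (-0.92) and CRTAP (-0.92). It was higher for SERPINF1 (1.04), GDAP1L1 (1.06), NELL1 (1.27), SPOCK1 (1.31), LINC01798 (1.33), STMN2 (1.52), RPH3A (1.64) and ZNF503-AS2 (1.79). The control side is 1 array an hour. In data outside the gene comparisons, the probe sets of bacterial poly-A spikes had a geometric mean of 141.4 (signal + 16) on array A of shMYCN at 48 h, where the arrays of control virus and no virus had 66.0 to 69.8. More genes passed in the step and in the difference without that array, but more also passed without array B of 48 h. Leaving out either one takes the spread of the 48 h pair, the widest of the pairs, out of the fit. The increase therefore cannot tell the arrays A and B of 48 h apart. The part of array A in single results was not tested otherwise.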

How the results depend on the processing

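The count of 1356 genes in the step became 819 with no dim filter, 619 with array weights, 489 in a fit of the 4 arrays alone, 412 at an adjusted p of 0.01 and 382 with a 1.5-fold minimum. Leaving out 1 array gave 296 to 2251. The 21 genes of the difference became 37 with quantile normalization, 4 with the mean of probe sets and 54 with array weights; there were 0 with no dim filter, without the variance trend or at 0.01, and 0 to 624 without 1 array. With the replicate block the counts were 1522 and 32; the letters gave no pairing, and no call of a named gene was lost with it. No control step passed under any alternative that fitted the control arrays. Of the 15 rises and 15 falls, 1 call was lost with no dim filter (CKM), 1 with the mean of probe sets (MBD5) and 2 without array A of 72 h (CT75 and CKM). All 21 differences kept their sign.

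Genes that had not passed changed sign in the step: with quantile normalization C2CD2L (-0.01) and MYCN (0.14); with the mean of probe sets GRK6 (-0.05), C2CD2L (-0.02), MYCL (0.05), MAX (0.17) and MYCN (0.13); and when 1 array was left out, with the range over the 4 fits, HLA-F-AS1 (-0.24 to 0.76), MLXIP (-0.21 to 0.40), C2CD2L (-0.16 to 0.30), RSPH3 (-0.18 to 0.91), MAPK11 (-0.10 to 0.24), MNT (-0.29 to 0.02), MAX (-0.31 to 0.20), MYCN (-0.09 to 0.09), ST3GAL2 (-0.07 to 0.18) and MYCNOS (-0.05 to 0.25). The cause was not tested.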
